A study of Mus musculus with 4 samples.

Results

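The 10 genes described here encode the acid-base machinery of renal intercalated cells, and they were chosen by name as 10 of the 31053 genes counted. They comprise the transcription factor Foxi1, the V-ATPase subunits Atp6v1b1, Atp6v1c2, Atp6v1g3, Atp6v0a4 and Atp6v0d2, the anion exchangers Slc4a1, Slc26a4 and Slc4a9, and the cytosolic carbonic anhydrase Car2. Intercalated cells are scattered along the connecting tubule and collecting duct among the principal cells, which handle salt and water. Type A intercalated cells secrete protons into the urine through an apical V-ATPase and return bicarbonate to the blood through the exchanger AE1, the product of Slc4a1. Type B cells do the opposite and secrete bicarbonate through the apical exchanger pendrin, the product of Slc26a4, while carbonic anhydrase II supplies protons and bicarbonate in either type and FOXI1 is the forkhead factor that specifies the lineage.

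Transcript counts of single nuclei came from kidney slices of 4 male mice aged 12 weeks, 1 library per mouse. The slices had their cortex trimmed, though not fully removed, to enrich for medulla. The 2 control mice carried Tfap2aFlox/Flox without Cre, and the 2 knockout mice carried Hoxb7Cre together with the same floxed alleles, so that both groups shared the floxed Tfap2a gene. Hoxb7Cre is active in the ureteric lineage, from which the collecting duct arises. Each group is limited to 2 animals. The questions addressed were in which kidney cell classes the 10 genes were transcribed, how type A and type B nuclei differed in them, and whether their levels differed between knockout and control mice.

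Promoter sequence was read from the RefSeq annotation of GRCm38.p6 (mm10), which held the 250 bases before an annotated transcript start for 6 of the 10 genes. Such a start need not be the outermost of the gene: the stretch for Atp6v1c2 lay inside the gene and that for Slc26a4 overlapped the upstream end of the gene. Of these, 3 are shown because they belong to the lineage factor, to a V-ATPase subunit shared by both intercalated types and to the type B exchanger. Atp6v1b1 occupies chr6:83743017-83758855 and its promoter chr6:83742767-83743016 on the plus strand. Foxi1 occupies chr11:34204341-34208089 and its promoter chr11:34208090-34208339 on the minus strand. Slc26a4 occupies chr12:31519814-31560055, and the stretch shown for it is chr12:31559985-31560234 on the minus strand. Capitals mark a match to TGTTTAC, a forkhead factor motif, in the first and to GCCNNNGGC, an AP-2 motif, in the second, and the third has neither.
Atp6v1b1: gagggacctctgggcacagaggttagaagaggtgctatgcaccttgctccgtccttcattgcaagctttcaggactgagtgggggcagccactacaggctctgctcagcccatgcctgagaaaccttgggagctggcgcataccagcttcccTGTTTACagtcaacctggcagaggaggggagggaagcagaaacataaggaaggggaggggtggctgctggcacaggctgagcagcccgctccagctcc
Foxi1: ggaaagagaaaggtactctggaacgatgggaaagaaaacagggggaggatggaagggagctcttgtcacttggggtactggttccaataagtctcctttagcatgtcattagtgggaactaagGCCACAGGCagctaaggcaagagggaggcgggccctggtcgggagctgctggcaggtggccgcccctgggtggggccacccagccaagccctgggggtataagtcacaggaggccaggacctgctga
Slc26a4: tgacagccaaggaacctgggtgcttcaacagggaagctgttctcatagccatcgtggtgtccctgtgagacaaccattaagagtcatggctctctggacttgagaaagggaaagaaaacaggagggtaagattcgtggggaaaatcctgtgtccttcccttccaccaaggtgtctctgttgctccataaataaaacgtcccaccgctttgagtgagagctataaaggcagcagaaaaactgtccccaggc

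The forkhead search was for the letters TGTTTAC, which 3.09% of 27025 promoters of that length held, for TATTTAC, which 2.75% held, and for TGTTTGC, which 4.3% held, each on both strands. At least 1 of them was present in 9.65%. Among the 6 promoters of these genes 1 held such a match, that of Atp6v1b1, with TGTTTAC from 98 to 92 bases before the start. The AP-2 motif GCCNNNGGC, which reads the same on both strands apart from its middle bases, was present in 13.6% of all promoters and in 1 of the 6, that of Foxi1, from 127 to 119 bases before the start. These matches describe letters in the window and were not tested as binding sites. Of the other genes, the positions are chr1:138273738-138289462 (Atp6v1g3), chr4:19876838-19922566 (Atp6v0d2), chr6:38048483-38124586 (Atp6v0a4), chr12:17284721-17325386 (Atp6v1c2), chr11:102348820-102365281 (Slc4a1) and chr3:14886269-14900770 (Car2).

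The libraries held 22179410 to 44964099 unique molecular identifiers (UMIs), and 5430 to 7997 nuclei per mouse passed the filters, 27341 in all. Between any 2 libraries 7 to 18 cell barcodes were shared. Clustering gave 12 broad classes, named by marker lists that hold none of the 10 genes. Among them were proximal tubule (PT), thick ascending limb (TAL) and distal convoluted tubule (DCT) nuclei, collecting duct intercalated cell-like nuclei (CD-IC), collecting duct principal cell-like nuclei (CD-PC), connecting tubule-like nuclei (CNT) and deep medullary epithelium of the pelvis (DMEP), and the word "like" applies to each class name throughout. CD-IC held 659 nuclei, with 180, 155, 172 and 152 in control 1, control 2, knockout 1 and knockout 2. Levels are given as CPM, the UMIs of a gene scaled to a common total, of the summed nuclei of a class in a mouse, and they are compared within a gene. Free RNA was measured in barcodes with under 100 UMIs, and a class level counts as above it where it exceeded the free RNA of its own library in all 4 mice. The CD-IC sums also held UMIs of the 9 PT markers, which made up 1.46% and 1.77% of CD-IC UMIs in control 1 and knockout 1 against 0.471% and 0.205% in control 2 and knockout 2.

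Each of the 10 genes was at its highest in CD-IC in all 4 mice, against 1.73% of 16434 genes with at least 50 UMIs. Because 9 of the 10 were among the 2000 variable genes that formed the clusters, this is a description without a test. With the 10 genes kept out of the clustering all 10 had their highest level in CD-IC by the mean of the 2 control mice. The knockout mice were not part of that check. The ratio of CD-IC to the mean of the other 11 classes, on log2(CPM + 10), had a median of 5.14 over the 10 genes against -0.08 over all genes. Genes differed widely in how far they were restricted to the class. The plot of levels by cell class shows steep isolated peaks for the exchangers and Foxi1 and flatter profiles for Atp6v0a4 and Car2.

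**Figure D1:**
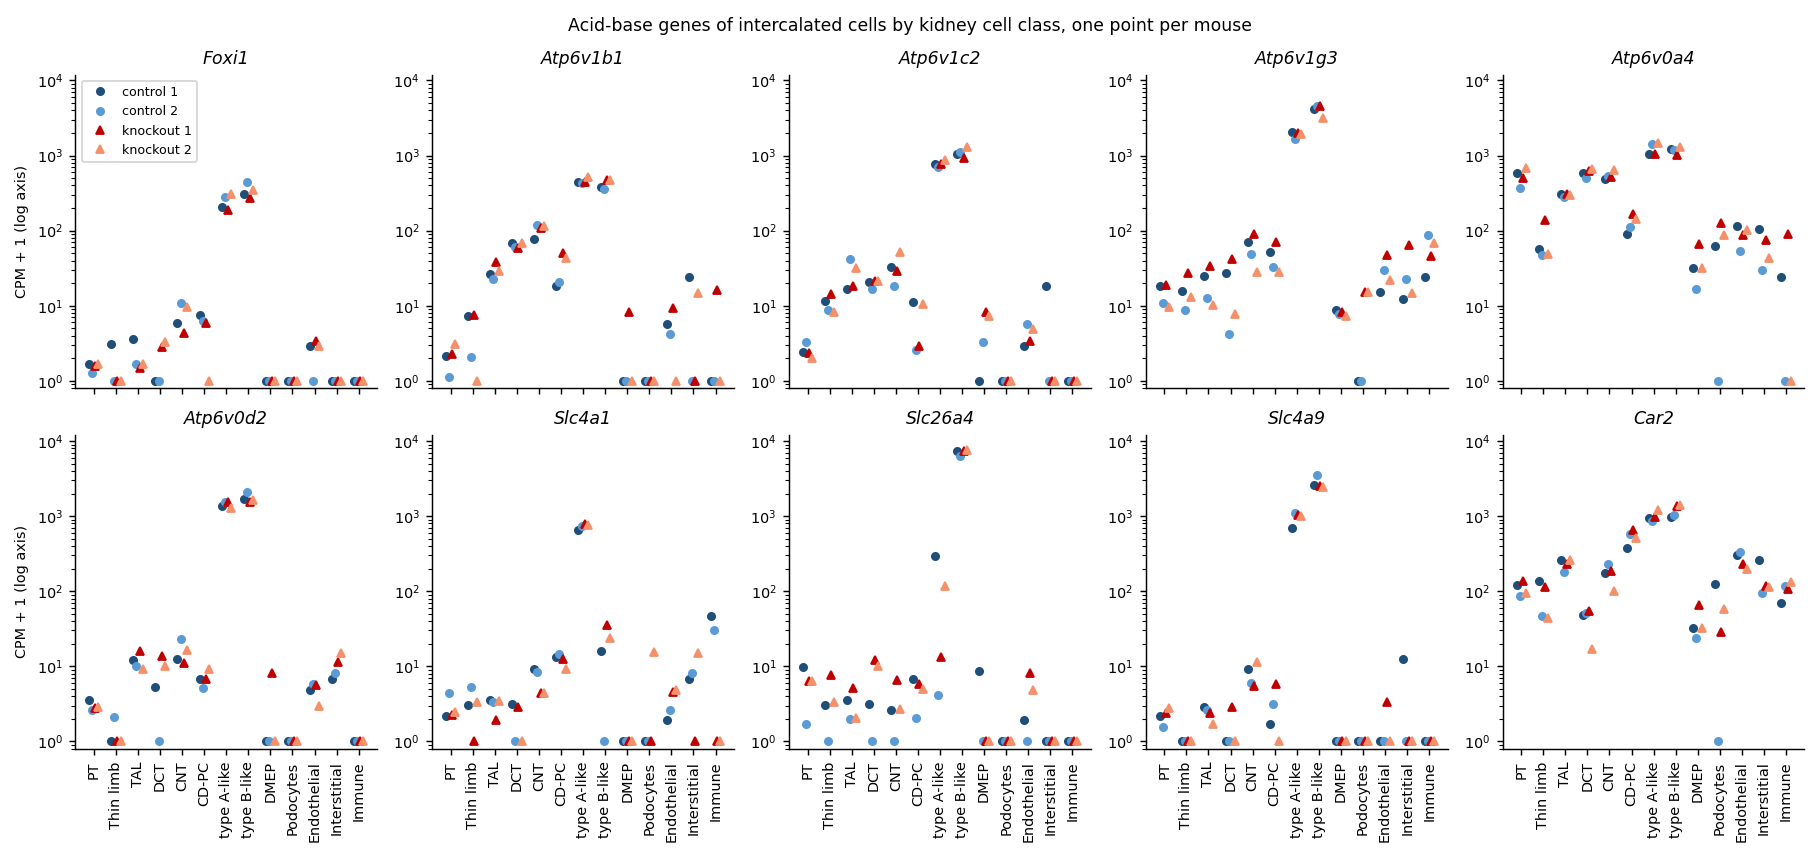
Level of each gene as CPM + 1 on a log axis in 11 broad cell classes and in type A-like and type B-like intercalated nuclei, with 1 point per mouse, marked by mouse in the key. Slc26a4 and Slc4a9 rise far above every class outside the intercalated nuclei, whereas Atp6v0a4 stays near 500 CPM in PT, DCT and CNT.

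Foxi1, which directs intercalated fate and activates V-ATPase and exchanger genes, measured 262, 324, 243 and 324 CPM in CD-IC of control 1, control 2, knockout 1 and knockout 2. CNT had 4.96, 9.92, 3.38 and 8.59 CPM and CD-PC, which overlapped it, had 6.57, 5.27, 4.85 and 0 CPM, all but 1 resting on 3 to 10 UMIs per mouse. No class outside CD-IC exceeded free RNA, 6.54 to 18.5 CPM, in all 4 mice. After thinning each nucleus to 1000 UMIs, 21.5%, 27.7%, 19.8% and 32.4% of CD-IC nuclei held a Foxi1 UMI (38.3%, 46.5%, 41.3% and 52.6% without thinning). The thinned share in PT nuclei, which should lack the gene, was 0.0519% to 0.0997%.

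Slc26a4 and Slc4a9 were the most restricted of the 10 genes. Slc26a4, which encodes the chloride and bicarbonate exchanger pendrin, measured 4342, 1817, 4925 and 3494 CPM in CD-IC, and 93.7% to 98.8% of its UMIs in classed nuclei lay there although the class made up 2.15% to 2.85% of nuclei. Slc4a9, which encodes the basolateral transporter AE4, measured 1808, 1801, 2006 and 1652 CPM, and 95.6% to 98.2% of its UMIs lay in CD-IC. Its log2 ratio to the other classes was 7.32 ± 0.12 (SD, n = 4 mice) and that of Slc26a4 8.12 ± 0.45. Slc4a9 gave no UMI in 853 thin limb nuclei, which allows a level of up to 1.42 CPM, and neither gene exceeded free RNA outside CD-IC in all 4 mice.

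Slc4a1, the AE1 gene, measured 284, 532, 285 and 428 CPM in CD-IC, so that control 2 was highest and control 1 and knockout 1 were lowest. Its share of UMIs lying in CD-IC was 72.5% to 81.7% and its log2 ratio 4.66 ± 0.43. Slc4a1 is also an abundant red cell transcript, and the immune class held 2, 1, 0 and 0 of its UMIs. Free RNA held 8.55 to 24.7 CPM, and CD-IC alone exceeded it in all 4 mice.

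Subunits of the V-ATPase, the pump that moves protons at the cost of ATP, fell into a restricted and a shared group. Atp6v0d2, a d subunit of the membrane sector, measured 1544, 1706, 1539 and 1437 CPM in CD-IC, with a mean of 1557 CPM. Atp6v1g3, the kidney form of the stalk subunit G, measured 3282, 2514, 3664 and 2480 CPM. Atp6v1c2, the C2 form of the subunit that links stalk and membrane sector, measured 938, 828, 870 and 1071 CPM. From 89.2% to 92.4% of Atp6v0d2 UMIs, 76.4% to 83.6% of Atp6v1g3 UMIs and 68.5% to 80.4% of Atp6v1c2 UMIs lay in CD-IC. Of these genes, Atp6v1c2 alone exceeded free RNA elsewhere, in TAL at 15.9, 41.2, 17.5 and 30.9 CPM and in CNT at 31.4, 17.4, 28.2 and 51.6 CPM, with ranges that overlapped between the classes.

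Atp6v1b1, the B1 form of the catalytic head's regulatory subunit, measured 411, 405, 457 and 495 CPM in CD-IC and was graded along the distal nephron. CNT followed with 76.1, 119, 107 and 113 CPM and DCT with 67.4, 59.9, 57.0 and 68.4 CPM, so that the lowest CNT mouse lay above the highest DCT mouse. TAL held 25.1, 21.4, 36.9 and 28.1 CPM and did not exceed free RNA in every mouse, whereas CD-PC, at 17.5, 19.5, 49.5 and 41.7 CPM, did. Between 43.5% and 50.9% of Atp6v1b1 UMIs lay in CD-IC.

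Atp6v0a4, the a4 form of the large membrane subunit that sends the pump to the plasma membrane, had the widest distribution of the 10. It measured 1140, 1344, 1018 and 1406 CPM in CD-IC, 589, 508, 616 and 665 CPM in DCT, 489, 526, 511 and 639 CPM in CNT, and 593, 371, 501 and 674 CPM in PT. The lowest CD-IC mouse was therefore above the highest mouse of each of these classes, while DCT, CNT and PT overlapped each other. TAL lay lower at 304, 284, 304 and 295 CPM, and CD-PC lower still at 90.6, 112, 168 and 144 CPM, under the free RNA of 169 to 292 CPM. PT nuclei numbered 1956 to 4409 per mouse, and 5.31% to 12.3% of Atp6v0a4 UMIs lay in CD-IC.

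Car2, carbonic anhydrase II, measured 966, 921, 1236 and 1294 CPM in CD-IC, and CD-PC came second with 377, 575, 653 and 514 CPM. CD-PC was the other class above free RNA in all 4 mice, in which Car2 stood at 239 to 339 CPM. Endothelial nuclei held 301, 334, 231 and 198 CPM, TAL 261, 179, 229 and 261 CPM and CNT 172, 233, 187 and 99.7 CPM, and these ranges overlapped. From 11.8% to 17.1% of Car2 UMIs lay in CD-IC, with a log2 ratio of 2.69 ± 0.32.

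Single nuclei carried the genes together. With each nucleus thinned to 1000 UMIs, which left out 0 to 5 shallower CD-IC nuclei per mouse, a CD-IC nucleus held UMIs of 5.29, 5.23, 5.35 and 5.78 of the 10 genes on average. At least 3 of the 10 were seen in 94.9%, 95.5%, 94.0% and 98.0% of CD-IC nuclei. The same share was 2.99%, 1.66%, 4.83% and 1.97% of CD-PC nuclei and 1.01% to 3.08% of CNT nuclei, and it was 0% to 0.867% in the remaining classes, PT included.

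The wider acid-base gene lists were less restricted than the 10 genes. Of 19 further V-ATPase subunits, 7 were over 2-fold higher in CD-IC than in the mean of the other classes in all 4 mice, with a median log2 ratio of 0.69, and 2 were lower in all 4. Atp6v1a, the catalytic A subunit, stood at 1282, 1091, 1288 and 1209 CPM in CD-IC with a log2 ratio of 2.37 ± 0.19, whereas the ratios of Atp6v0b, Atp6v1f and Atp6v0e, the next 3 subunits by level, were 2.05, 1.01 and 0.81. Atp6v0c, the proteolipid ring gene, is listed at 0 in every library. Of 8 V-ATPase assembly and TLDc genes 4 were over 2-fold higher in all 4 mice. These were Dmxl1, Ncoa7, Wdr72 and Tldc2, with log2 ratios of 3.51, 2.73, 2.29 and 2.44. Dmxl1, a RAVE complex gene, led in level at 2991, 3555, 2900 and 3626 CPM. Oxr1, with a log2 ratio of 0.44, was under 2-fold in each mouse. The share over 2-fold among 16434 genes was 1.9%.

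Among 24 further acid-base transporters and carbonic anhydrases, 5 were over 2-fold higher in CD-IC in all 4 mice and 9 were lower in all 4, with a median of -0.02. The highest of the list in CD-IC of the control mice was Car12, a membrane-bound carbonic anhydrase, at 3473, 2507, 3465 and 2415 CPM. Rhcg, an ammonia transporter, measured 495, 810, 480 and 503 CPM and Slc26a7, an anion exchanger of type A cells, 452, 502, 349 and 410 CPM. Of 14 transcription factors and signals of intercalated fate 7 were over 2-fold higher, with a median of 1.77. Tfcp2l1, a factor shared by collecting duct cells, measured 2374, 2530, 2241 and 2130 CPM, and Kit, a receptor kinase of type A cells, 475, 767, 324 and 540 CPM. Insrr and Hmx2, which mark type B cells, had log2 ratios of 5.35 and 4.97. Kit, Insrr, Hmx2, Slc26a7, Dmrt2, Oxgr1 and Tldc2 were also among the markers that named the class, so their ratios follow from it.

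Likeness of pattern was measured as Pearson's r of log2(CPM + 10) across 26 sums (13 classes in each of the 2 control mice, intercalated nuclei divided into both types) among 14941 genes. These sums share libraries and depth, and r is given as a description. Foxi1, Atp6v0d2 and Slc4a9 formed a tight trio, with r of 0.991 between Foxi1 and Atp6v0d2, 0.988 between Foxi1 and Slc4a9 and 0.986 between Atp6v0d2 and Slc4a9, and Gm12121 was the third gene most like Foxi1 at 0.984. Atp6v1g3 (0.964 with Foxi1) and Atp6v1c2 (0.970 with Atp6v0d2) followed the same genes. Slc4a1 was most like Dmrt2, a transcription factor of type A cells (r = 0.928), and Slc26a4 was most like Gm47795 (0.978) and Insrr, an insulin receptor-related kinase of type B cells (0.976). Slc4a1 and Slc26a4 had an r of 0.167 with each other.

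Atp6v1b1 was most like Atp6v1h, a regulatory V-ATPase subunit (0.942), followed by Tmem117 and Oxgr1. Atp6v0a4 was most like Svopl (0.971), a transporter-like gene, and Wdr72 (0.939), a WD-repeat gene linked to distal renal tubular acidosis. Car2 had no close partner, with Wscd2 highest at 0.772.

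Within CD-IC, clustering without the 10 genes separated 396 type A-like nuclei from 263 type B-like nuclei. Type A-like nuclei were named by Aqp6, Kit, Adgrf5 and Dmrt2 and numbered 97, 123, 81 and 95 per mouse. Type B-like nuclei were named by Insrr, Hmx2, Spink8 and Oxgr1, numbered 83, 32, 91 and 57 per mouse, and comprised 2 subclusters, 1 of 142 nuclei led by Pclo and 1 of 121 nuclei led by 4930469K13Rik and Sv2c. A marker counted if at least 5% of nuclei held it and its level was at least 2-fold that of the median cluster. By this rule type A-like nuclei also had 3 type B markers, Insrr, Spink8 and Oxgr1. Of the type A markers, Adgrf5 counted in both type B-like subclusters and Kit in the Sv2c one. The type A marker list summed to 4018 to 5130 CPM in type A-like nuclei against 59.8 to 682 CPM in the type B-like subclusters, and the type B list to 500 to 942 CPM against 1999 to 4541 CPM. Oxgr1, a marker listed for type B, was higher in type A-like nuclei (459, 360, 695 and 590 CPM) than in type B-like nuclei (244, 250, 276 and 357 CPM), and within type B it lay mainly in the Pclo subcluster, so the name rests on the other markers. Median depth was 2089 UMIs per type A-like and 2951 per type B-like nucleus. The comparison of types is a description, since both were drawn from the same clustering.

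The 3 genes that differed over 2-fold between the types in all 4 mice were Slc4a1, Slc26a4 and Slc4a9, beside 2% of 6701 genes that were over 2-fold higher and 1.88% that were over 2-fold lower in type A-like nuclei. Slc4a1 measured 646, 748, 775 and 760 CPM in type A-like nuclei and 14.99, 0, 34.5 and 23.0 CPM in type B-like nuclei, where the 0 of control 2 allows up to 23.5 CPM. The difference was 4.91 ± 0.92 on log2(CPM + 10), with A-like above B-like in 4 of 4 mice and no overlap. Without the type B-like nucleus that held most in each mouse, Slc4a1 stood at 3.86, 0, 3.20 and 5.90 CPM in type B-like nuclei. In CD-IC as a whole control 2, which had the largest share of type A-like nuclei, was highest.

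Slc26a4 went the opposite way, at 7351, 6272, 7428 and 7613 CPM in type B-like nuclei against 293, 3.18, 12.3 and 118 CPM in type A-like nuclei. The log2 difference was -6.94 ± 2.04, and its spread came from the low side. In type A-like nuclei of control 1 all 58 UMIs lay in 1 nucleus, which was called a doublet, and in knockout 2 a single nucleus held 24 of 25 UMIs. Without the nucleus that held most, Slc26a4 stood at 0, 0, 6.28 and 4.86 CPM in type A-like nuclei. Slc26a4 was detected in 82 of 83, 32 of 32, 89 of 91 and 55 of 57 type B-like nuclei, whereas Slc4a1 was detected in 64 of 97, 103 of 123, 63 of 81 and 70 of 95 type A-like nuclei.

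Slc4a9 was present in both types and higher in type B-like nuclei, with 2631, 3542, 2502 and 2430 CPM against 701, 1092, 1034 and 1015 CPM in type A-like nuclei. This 2.88-fold difference (log2 difference -1.52 ± 0.32) had the same direction in 4 of 4 mice. The level in type A-like nuclei exceeded the highest free RNA level of 33.7 CPM in every mouse, and 42.6%, 58.5%, 55.8% and 54.9% of type A-like nuclei held a UMI after thinning (52.6%, 84.6%, 67.9% and 66.3% before). In PT nuclei, which should lack the gene, the thinned share was 0% to 0.181%.

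Pump subunits divided by form. Atp6v1g3 measured 2088, 1678, 1982 and 1907 CPM in type A-like and 4168, 4567, 4521 and 3179 CPM in type B-like nuclei, a log2 difference of -1.09 ± 0.30 with no overlap, although the difference was under 2-fold in control 1 and knockout 2. Smaller differences in the same direction in all 4 mice were seen for Atp6v1c2 (-0.48 ± 0.16), Foxi1 (-0.48 ± 0.19), Atp6v0d2 (-0.27 ± 0.17) and Car2 (-0.26 ± 0.17). Atp6v1b1 (0.11 ± 0.15) and Atp6v0a4 (0.07 ± 0.22) had no common direction, each being higher in type A-like nuclei in 3 of 4 mice. Of the 10 genes 7 were lower in type A-like nuclei in every mouse and 1, Slc4a1, was higher.

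**Figure D2:**
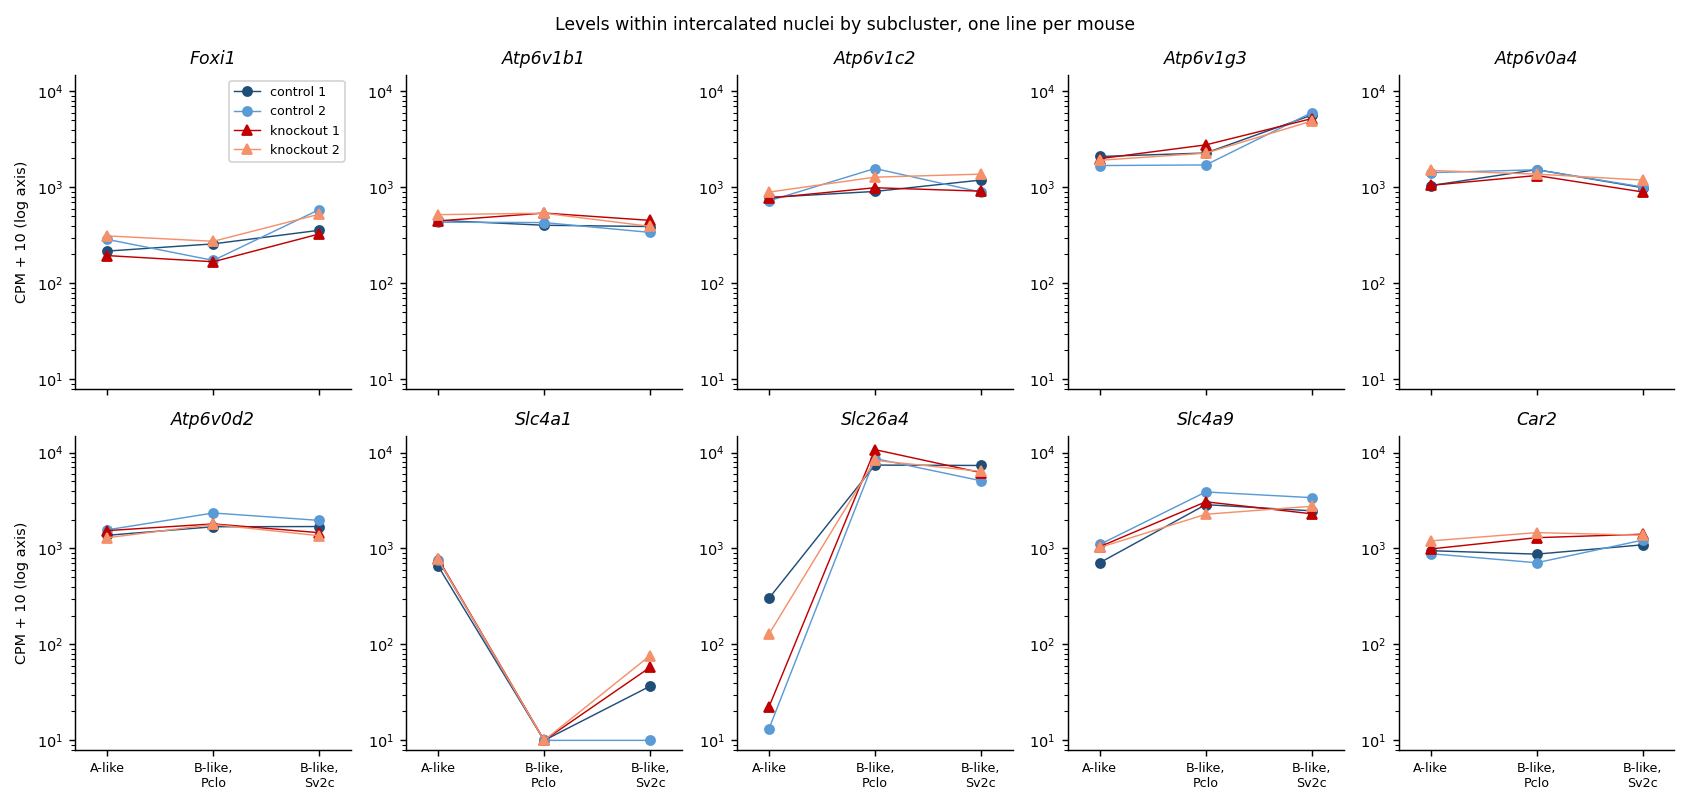
Level of each gene as CPM + 10 on a log axis in type A-like nuclei and in the Pclo and Sv2c subclusters of type B-like nuclei, with 1 line per mouse. Slc4a1 and Slc26a4 cross over between the types, Slc4a9 and Atp6v1g3 climb toward type B-like nuclei, and Atp6v1b1 and Atp6v0a4 change little.

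Other acid-base genes were read in the same way. Of 19 further V-ATPase subunits 10 were lower in type A-like nuclei in all 4 mice and 1, Atp6v1g2, was higher, and none was over 2-fold in all 4. The most marked was Atp6ap2, an accessory subunit also known as the prorenin receptor, with a log2 difference of -1.34 ± 0.52. Among the assembly and TLDc genes, Ncoa7 (0.83 ± 0.30) and Oxr1 (1.09 ± 0.19) were higher in type A-like nuclei in all 4 mice, and Tldc2, 1 of the type B markers, was lower (-3.48 ± 1.01). Among transporters and carbonic anhydrases, Slc26a7 was higher in type A-like nuclei by 5.79 ± 0.87 and Rhbg, an ammonia transporter, by 1.44 ± 0.42, whereas Car12 was lower by a difference of -1.55 ± 0.46. Jag1, a Notch ligand, was lower at -2.64 ± 0.49.

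The 2 type B-like subclusters also differed in some of the 10 genes. Atp6v1g3 measured 5651, 6011, 5198 and 4908 CPM in the Sv2c subcluster and 2272, 1703, 2763 and 2263 CPM in the Pclo subcluster, with a log2 difference of -1.29 ± 0.39, Pclo minus Sv2c, and no overlap. Foxi1 followed with 347, 576, 317 and 516 CPM against 248, 163, 158 and 264 CPM (-1.03 ± 0.53). Atp6v0a4 (0.50 ± 0.20), Slc26a4 (0.49 ± 0.37) and Atp6v1b1 (0.27 ± 0.17) were higher in the Pclo subcluster in all 4 mice. Slc4a1 had no UMI in the 142 Pclo nuclei, which allows up to 8.28 CPM, and 19 UMIs in the Sv2c nuclei. Of these, 10 lay in 1 nucleus of knockout 1, which held no Slc26a4 UMI.

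Values that moved with the subclusters are given beside these differences. Sv2c nuclei had a median of 4201 UMIs against 2414 in Pclo nuclei. They held 506 to 1820 CPM of the 9 CD-PC markers, all of which gave UMIs, against 264 to 350 CPM in Pclo nuclei, and 248 to 682 CPM of the 5 type A markers, all with UMIs, against 59.8 to 291 CPM from 3 of the 5. Type A-like nuclei themselves gave UMIs of only 4 of these 5 markers. CNT markers stood at 2485, 153, 9337 and 2246 CPM in Sv2c and 5946, 420, 1207 and 1022 CPM in Pclo nuclei. The part of these values in the differences was not tested. Over 6701 genes, 0.821% were over 2-fold higher and 2.72% over 2-fold lower in the Pclo than in the Sv2c subcluster in all 4 mice, and none of the 10 genes passed that limit in all 4.

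Slc4a1 and Slc26a4 rarely occurred in the same nucleus. Of 659 CD-IC nuclei 300 held Slc4a1 UMIs without Slc26a4, 258 held Slc26a4 without Slc4a1, 95 held neither and 6 held both, which is 0.910% (exact Clopper-Pearson 95% interval 0.335% to 1.97%, for counting error only). These 6 nuclei numbered 2, 1, 2 and 1 per mouse, none was called a doublet, and 3 were type A-like and 3 type B-like. After thinning, 3 of 647 nuclei held both (0.464%, 0.0957% to 1.35%). For comparison, 13.4% of CD-IC nuclei held a UMI of Aqp2, the principal cell water channel, and 20.5% held a UMI of Lrp2, a proximal gene (8.35% and 10.4% after thinning).

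**Figure D3:**
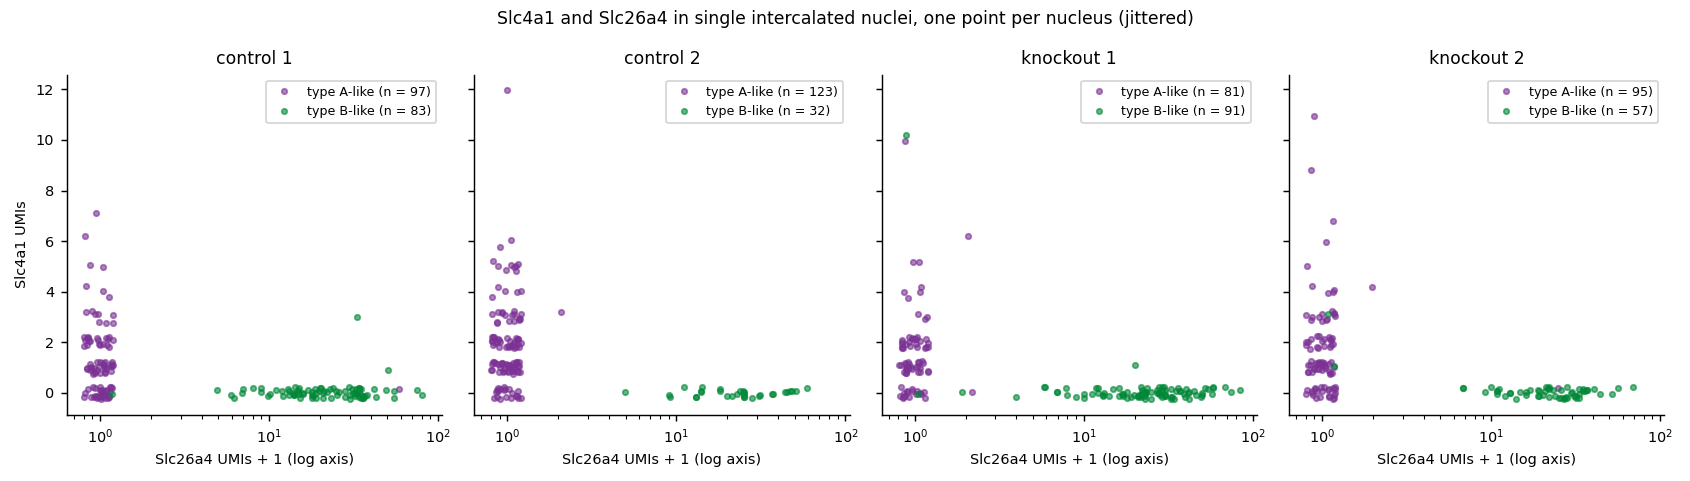
UMIs of Slc4a1 against UMIs of Slc26a4 + 1 (log axis) in single CD-IC nuclei of each mouse, with points jittered and colored by type. Most type A-like nuclei lie along the vertical axis and most type B-like nuclei along the horizontal axis, with 6 nuclei off both.

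The makeup of the class varied between mice. Type A-like nuclei made up 53.9% (exact 95% interval 46.3% to 61.3%), 79.4% (72.1% to 85.4%), 47.1% (39.5% to 54.8%) and 62.5% (54.3% to 70.2%) of CD-IC. This is 66.6% ± 18.01 in control and 54.8% ± 10.9 in knockout mice (SD, n = 2), a difference within the spread between mice (exact permutation test, two-sided, p = 0.667, smallest possible 0.333). The share of CD-IC among all nuclei was 2.33%, 2.85%, 2.15% and 2.46%, with a log2 fold change of -0.17 (SE 0.25, adjusted p = 0.643, edgeR quasi-likelihood test over 12 classes; exact permutation p = 0.667). Relative to CD-IC and CD-PC together, intercalated nuclei made up 34.7%, 24.3%, 38.7% and 42.6%, with CD-PC at 4.37%, 8.90%, 3.40% and 3.32% of nuclei. Both knockout mice lay above both controls in the former and below both in the latter. The CD-PC share had a log2 fold change of -0.98 (SE 0.38, adjusted p = 0.179, same edgeR test) and was not called.

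**Figure D4:**
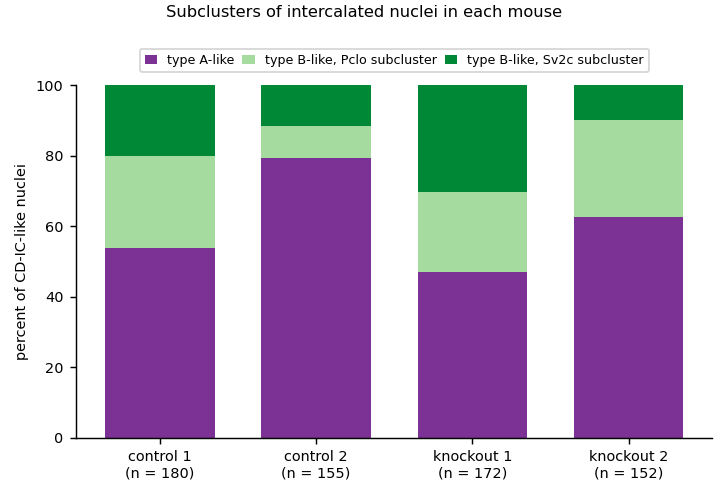
Percent of CD-IC nuclei in the type A-like class and in the Pclo and Sv2c type B-like subclusters in each mouse, with the number of CD-IC nuclei under each bar. Control 2 has the largest type A-like share, 79.4%, and the other 3 mice lie between 47.1% and 62.5%.

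Tfap2a, the targeted gene, measured 71.0, 88.3, 74.8 and 59.7 CPM in CD-IC and 57.0, 98.1, 66.0 and 106 CPM in CD-PC of control 1, control 2, knockout 1 and knockout 2. In CNT its levels were 95.9, 112, 71.0 and 72.2 CPM in the same order (log2 fold change -0.53 ± 0.30, edgeR adjusted p = 0.9998), with both knockout mice below both controls. DMEP nuclei held 11, 11, 0 and 0 UMIs of the gene, again lower in both knockout mice, where a count of 0 allows up to 21.8 and 18.6 CPM against 42.8 and 24.8 CPM in the controls. Where on the gene these UMIs lie cannot be told from gene counts, so whether they include transcript of the deleted allele was not tested and the values do not check the labels. Genotype was compared by the edgeR quasi-likelihood test on UMIs summed per mouse, 2 knockout against 2 control mice, with Benjamini-Hochberg adjustment over all genes tested. With 1 library per mouse, p-values measure the spread between these 4 samples.

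None of the 10 genes was called in CD-IC, where 0% of 11252 genes passed an adjusted p of 0.05, with 110 lower and 104 higher at an unadjusted p under 0.05 and none of the 10 among them. DESeq2 called 1 gene and none of the 10. The median log2 fold change was 0.06 over the 10 genes and 0.03 over all genes, with 6 of the 10 higher and 4 lower in the knockout. With both types in the sum, Slc26a4 had a fold change of 0.46 ± 0.49 (SE) and its interval ran from -0.64 to 1.55. Its level was lowest in control 2, the mouse with the smallest type B-like share. In a class sum, fewer nuclei of a type and less RNA per nucleus cannot be told apart.

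For the lineage factor Foxi1 the 95% interval ran from -0.77 to 0.68, for Atp6v0d2 from -0.90 to 0.66, for Atp6v1b1 from -0.47 to 0.93 and for Slc4a9 from -0.78 to 0.83, all on the log2 scale. Car2 had a fold change of 0.43 ± 0.34, with both knockout mice (1236 and 1294 CPM) above both controls (966 and 921 CPM) and an interval from -0.32 to 1.18 (edgeR adjusted p = 0.999). Atp6v1b1 was also higher in both knockout mice, at 0.23 ± 0.31, and Atp6v0d2 lower in both, at -0.12 ± 0.35.

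Neither type taken alone gave a call among the 10 genes. In type A-like nuclei 0% of 9572 genes were called (141 lower and 106 higher at an unadjusted p under 0.05; DESeq2 also called 0), and the median over the 10 genes was 0.08 against -0.0042 over all genes. Slc4a1 had a fold change of 0.13 ± 0.31 there, with an interval from -0.54 to 0.81, and its 2 knockout values (775 and 760 CPM) were above the 2 control values (646 and 748 CPM). In type B-like nuclei 0.0212% of 9430 genes were called, the 2 genes Coch and Pde10a, both lower in the knockout, and the median over the 10 genes was -0.05 against -0.01. Slc26a4 had a fold change of 0.10 ± 0.37 with an interval from -0.68 to 0.89, and Slc4a9 of -0.36 ± 0.38 with both knockout mice below both controls.

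**Figure D5:**
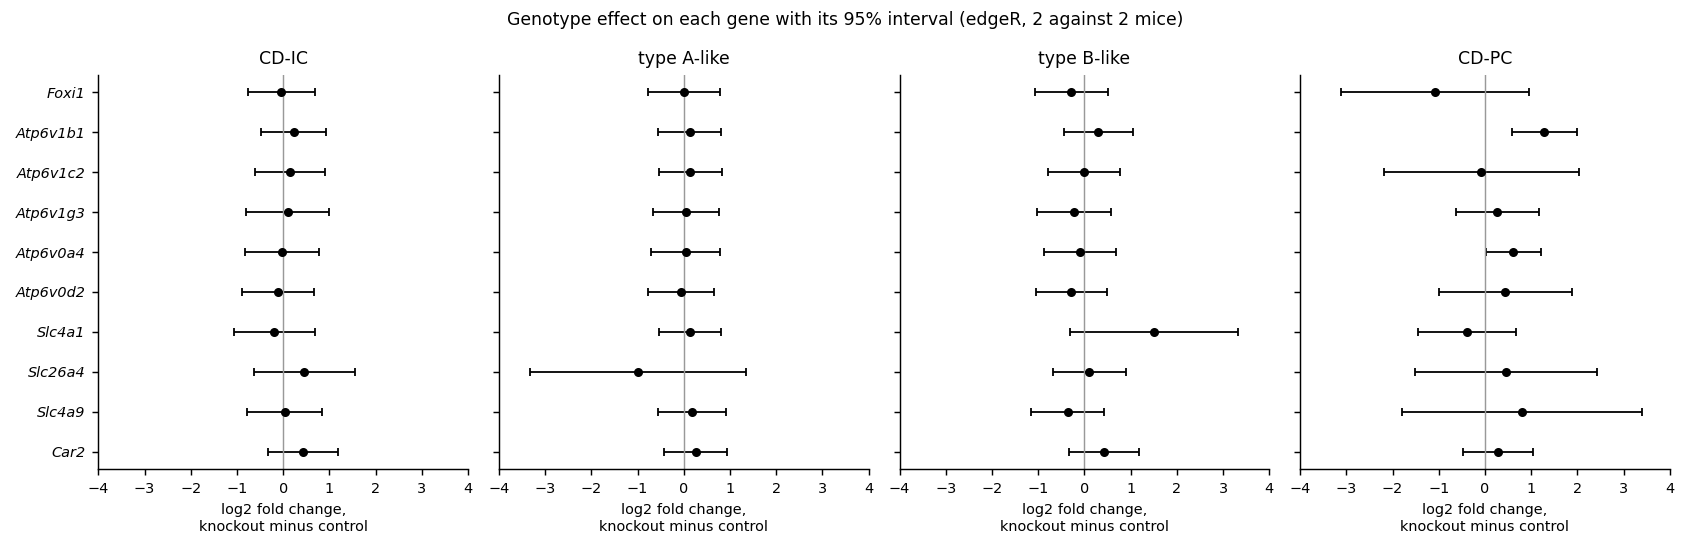
Log2 fold change of each gene, knockout minus control, with its 95% interval from edgeR (2 against 2 mice), in CD-IC, type A-like, type B-like and CD-PC nuclei. All intervals in the intercalated nuclei include 0, and in CD-PC those of Atp6v1b1 and Atp6v0a4 do not, without passing adjustment over all genes.

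The Coch and Pde10a calls in type B-like nuclei rested on few UMIs. Coch, a secreted matrix protein gene, gave 18 and 30 UMIs in control 1 and 2 and 1 and 0 in knockout 1 and 2 (log2 fold change -5.78 ± 0.92, edgeR adjusted p = 0.0311). Pde10a, a cyclic nucleotide phosphodiesterase gene, gave 35 and 25 UMIs against 4 and 1 (-3.94 ± 0.58, edgeR adjusted p = 0.0201). DESeq2 called 0 genes in this class.

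Whether the genotype effect differed between types was tested as a difference of fold changes with the mouse as a term. Of 11252 genes 0.0355% were called, 4 genes, and none of the 10 was among them. The differences of the 10 genes ran from -1.36 ± 0.80 for Slc4a1, which has 4, 0, 11 and 4 UMIs in type B-like nuclei, to 0.53 ± 0.35 for Slc4a9. For Slc26a4 the difference was -0.72 ± 0.47 and rested on the few type A-like nuclei that held its UMIs. It was 3.84 without control 1, where 1 nucleus called a doublet held all 58 UMIs (edgeR adjusted p = 0.0083), and -2.16 without control 2 (edgeR adjusted p = 0.0031), so no direction can be read. Each of these fits has 1 control mouse, assumed to vary like the others.

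Outside the intercalated class the 10 genes were compared in 5 other classes. At the limit of 10 UMIs over the samples, 9 of them were tested in CNT and 7 in DCT. In CD-PC 0% of 13547 genes were called (128 lower and 214 higher at an unadjusted p under 0.05; DESeq2 called 2), and the median over the 10 genes was 0.36 against 0.0021 over all genes, with Atp6v0d2, Slc26a4 and Slc4a9 under 10 UMIs in each mouse. In CNT 0% of 11806 genes and in DCT 0% of 10796 genes were called, and DESeq2 called 0 and 2. At an unadjusted p under 0.05 there were 147 lower and 109 higher genes in CNT, and 91 lower and 105 higher in DCT. Slc26a4 in DCT was among the latter, with 1, 0, 6 and 4 UMIs and a log2 fold change of 2.75 ± 1.17 (edgeR adjusted p = 0.9999). In TAL 0.0135% of 14761 genes (Col5a2 and Sgcz) and in PT 0.00563% of 17776 genes (Npas3) were called, and none of the 10 was among them. Atp6v0a4 in PT had a fold change of 0.26 ± 0.29 with an interval from -0.46 to 0.98, and in TAL of 0.01 ± 0.21.

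Atp6v1b1 in CD-PC had the smallest unadjusted p of the 10 genes in that class. It measured 17.5 and 19.5 CPM in the control and 49.5 and 41.7 CPM in the knockout mice, from 24, 37, 51 and 31 UMIs. Both knockout mice lay above both controls, and the log2 fold change of 1.29 ± 0.32 did not pass the adjustment over all genes (edgeR adjusted p = 0.9997). A UMI was present in 19 of 338, 33 of 483, 43 of 272 and 22 of 205 CD-PC nuclei, which is 5.62%, 6.83%, 15.8% and 10.7% (2.99%, 1.86%, 6.69% and 3.45% after thinning), with at most 3 UMIs in any of them.

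Other values moved with that difference. Free RNA of Atp6v1b1 was 12.1, 11.3, 18.3 and 28.3 CPM in the 4 libraries, highest in the knockout mice, and the CD-PC level exceeded it in all 4. The 6 CNT markers, all of which gave UMIs, summed to 513, 459, 1599 and 831 CPM in CD-PC, again higher in the knockout mice, and CNT is the class with the next highest Atp6v1b1 level after CD-IC. Slc26a4, Slc4a1, Atp6v0d2, Slc4a9 or Atp6v1g3 were found in 6, 3, 11 and 5 of the CD-PC nuclei with Atp6v1b1. Among all 19, 33, 43 and 22 CD-PC nuclei with Atp6v1b1, 1, 2, 5 and 2 were called doublets. The part of these values in the difference was not tested. Atp6v0a4 in CD-PC, at 90.6, 112, 168 and 144 CPM, had a fold change of 0.61 ± 0.27 (edgeR adjusted p = 0.9997) and lay under free RNA in every mouse.

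The wider lists gave no call between genotypes in CD-IC. Of 17 further V-ATPase subunits tested 6 were lower and 11 higher, with a median of 0.14, and 8 assembly and TLDc genes split 4 and 4. The 14 transcription factors and signals had 11 lower and 3 higher, with a median of -0.21, and 20 transporters and carbonic anhydrases split 10 and 10, with a median of 0.01 against 0.03 over all genes. At an unadjusted p under 0.05 stood 3 of the last list. Slc4a7, a sodium bicarbonate cotransporter gene, gave 12, 15, 2 and 1 UMIs (-3.00 ± 0.68), Slc9a3, the proximal sodium proton exchanger gene, gave 27, 14, 9 and 7 UMIs (-1.27 ± 0.48), and Car5b, a mitochondrial carbonic anhydrase gene, gave 30, 24, 16 and 11 UMIs (-0.93 ± 0.39), each with an edgeR adjusted p of 0.999. None of the 3 exceeded free RNA in all 4 mice. Free RNA of Slc9a3 was 149, 128, 158 and 192 CPM, against means of 33.7 CPM in type A-like and 31.3 CPM in type B-like nuclei.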

How the data were processed

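Nuclei were isolated from medulla-enriched kidney slices of 4 mice and sequenced by a 3′ droplet method. Per the labels and methods, the authors counted UMIs with Cell Ranger 3.0.2 against mm10; the deposited values are raw UMI counts per gene and barcode, without normalization. Whether intronic reads were counted is not given in the sources used here. From these counts, a barcode was kept as a nucleus, as in the study, if its genes numbered more than 500 but fewer than 4000 and mitochondrial transcripts stayed below 5%. Integration of the libraries and clustering used Seurat 5.3.0 (2000 variable genes, 30 dimensions, resolution 0.5), and CD-IC nuclei again at resolution 0.2 without the 10 genes. Doublets were called with Scrublet in scanpy 1.11.5 and left in. Each class gave 1 UMI sum per mouse, and genotype was tested on these sums with edgeR 4.0.16 (TMM, quasi-likelihood, at least 10 UMIs over the samples, adjusted p under 0.05), and the script was tested on simulated data. Library totals of 22179410 to 44964099 UMIs set the precision. The named genes are the 10 members and, from each further list, the 4 highest in CD-IC of the control mice, with others where they passed a stated limit. Genes named beyond that rule (Atp6ap2, Atp6v1g2, Rhbg, Jag1, Slc4a7, Slc9a3, Car5b) were chosen after their values were seen. The members and lists were chosen with earlier results of these data known. Alternatives were DESeq2 1.42.0, other filters and scaling, a replicate block, other clusterings and leaving out each mouse.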

Additional observations from a re-analysis of the deposited data

Results flagged for a closer look

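The genotype effect differed between type A-like and type B-like nuclei for 4 genes, none of them among the 10 acid-base genes, by the edgeR test of the difference itself. For 1700011H14Rik the log2 fold change in type A-like minus that in type B-like nuclei was -4.19, from 13, 4, 3 and 5 UMIs in type A-like and 3, 1, 24 and 19 UMIs in type B-like nuclei of control 1, control 2, knockout 1 and knockout 2. For Adgrf5, a type A marker, it was -2.22, with 2013, 2812, 2043 and 2129 CPM in type A-like and 41.2, 31.3, 110 and 236 CPM in type B-like nuclei. For Egf, a TAL marker, it was -2.24, with 636, 350, 111 and 335 CPM in type A-like and 116, 31.3, 81.5 and 248 CPM in type B-like nuclei. For Pdgfd it was -3.77, with 70.6, 66.9, 12.3 and 9.44 CPM in type A-like and 33.7, 46.9, 31.4 and 144 CPM in type B-like nuclei. DESeq2 called 0 genes in this test. None of the 4 genes was called in either type alone. Egf in type B-like nuclei rested on 31, 4, 26 and 43 UMIs. The 7 TAL markers, Egf among them, made up 0.295%, 0.171%, 0.096% and 0.121% of UMIs in type A-like nuclei. In type B-like nuclei they made up 0.158%, 0.0829%, 0.112% and 0.122%. The part of these values in the Egf difference was not tested.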

How the results depend on the processing

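By the mean of the 2 control mice, all 10 genes had their highest level in CD-IC under each alternative run for that result. The same count of 3 differed over 2-fold between types in all 4 mice under each alternative run for it. Counts of genes called moved more. In CD-IC they were 1 with DESeq2, 11 with no low-count filter, 48 with the replicate block, 1 under 1% mitochondrial UMIs and 0 to 20 leaving out 1 mouse, against 0. In type A-like nuclei they were 5 with no filter, 22 with the block, 6 under 1% mitochondrial UMIs and 2 to 20 leaving out 1 mouse, against 0. In type B-like nuclei they were 0 with DESeq2, 8 with no filter, 0 with filterByExpr, 4 with the block, 4 under 1% mitochondrial UMIs and 5 to 43 leaving out 1 mouse, against 2. For the difference between types they were 0 with DESeq2, 0 with filterByExpr, 1 with no integration, 2 under 1% mitochondrial UMIs, 2 without called doublets and 2 to 12 leaving out 1 mouse, against 4. In the 5 other classes, with alternatives chosen after seeing the data, they were 25 with DESeq2, 129 with no filter, 260 with the block and 6 to 113 leaving out 1 mouse, against 3. The cause was not tested.

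Of 386 values of the 10 genes in CD-IC and its types under alternatives, 46 changed sign and 1 was called, Slc26a4 in type A-like nuclei without knockout 2 (-3.39, edgeR adjusted p = 0.019). Leaving out 1 mouse leaves 1 mouse in its group, assumed to vary like the others. The difference between types in the genotype effect on Slc26a4 (-0.72) reversed to 4.45 with the 10 genes out of the clustering and to 4.85 with no integration, and ran from -3.05 to 3.84 leaving out 1 mouse. Atp6v1b1 in CD-PC was called with the replicate block (1.28, edgeR adjusted p = 0.013). Same-numbered mice deviated together (r = 0.59 in CD-IC, 0.451 in CD-PC, 0.26 in type B-like nuclei). Median mitochondrial share was 1.66% and 1.05% in control 1 and knockout 1, each above the other mouse of its group. In control 2 and knockout 2 it was 0.671% and 0.417%. The labels give these pairs only a number, and with 2 pairs the source of the likeness was not tested. The block could not be fitted beside the mouse term for the difference between types, and no cluster was named DCT under 1% mitochondrial UMIs, so the count over the 5 other classes was not run there. With 2 mice per group and 32 type B-like nuclei in control 2, changes within the printed intervals were not detectable at this depth.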
